A study of Homo sapiens with 8 samples.

Results

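The regions described here are 1875 stretches of open chromatin in NCI-H295R cells, an established human adrenocortical carcinoma line, that lay away from the ends of protein-coding genes and were missing from the peak list of 1 treatment only, the CBP inhibitor PRI-724 (CBPi). They come from ATAC-seq, an assay in which the Tn5 transposase inserts sequencing adapters into accessible DNA. They were chosen by their presence or absence in the deposited peak lists: each is a peak of the vehicle list whose summit lay over 1000 bp from both ends of every protein-coding gene. None overlapped the CBPi list by 1 bp, and each was overlapped in the list of the EZH2 inhibitor EPZ-6438 (EZH2i) and in that of forskolin (FSK). The vehicle list held 61016 peaks, of which 48491 were distal by this distance, so the regions make up 3.87% of the distal peaks. "Lost" and "kept" below mean only that a vehicle peak had no overlap, or had one, in a treated list.

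All 4 groups were the same cell line, with 2 libraries each that the labels call biological replicates. Vehicle cells had DMSO for 96 h, EZH2i cells 62 µM EPZ-6438 for 96 h and CBPi cells 26 µM PRI-724 for 96 h, both inhibitors at doses labelled as the IC-50. FSK cells had vehicle for 48 h and then 10 µM forskolin for 48 h, so the FSK exposure was shorter than that of the inhibitors. Each group has 1 peak list, of 61016 (vehicle), 41086 (EZH2i), 47161 (CBPi) and 51095 (FSK) peaks. No value below therefore has a replicate error and no p-value was computed. The 95% intervals are Wilson intervals for counts of peaks. They cover counting error only and treat neighbouring peaks as independent, and read depth is unknown. In the vehicle list 8 of 10 adrenocortical marker genes had a peak within 1000 bp of a gene end. Neither HSD3B2 nor CYP21A2 had one. The same count was 1 of 5 for immune, 1 of 5 for endothelial, 0 of 5 for fibroblast and 2 of 5 for chromaffin markers.

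CBP, encoded by CREBBP, is a transcriptional coactivator and histone acetyltransferase that is brought to enhancers and promoters by DNA-binding factors, among them β-catenin with TCF/LEF proteins. PRI-724 is known as a compound that interferes with the binding of β-catenin to CBP. EZH2 is the methyltransferase of Polycomb repressive complex 2, and forskolin activates adenylyl cyclases and so raises cAMP. Distal open chromatin is where most enhancers lie, and gene-poor stretches of the genome hold much of the compact, late-replicating chromatin.

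Few of the regions lay on an annotated start of transcription. Of the 1875, 21 (1.12%, 0.734 to 1.71) overlapped the window from 250 bases before to 50 after a RefSeq gene start, against 5.63% of all distal peaks and 11.03% of those kept in all 3 treated lists. The share was also low for peaks lost only with EZH2i (1.79%, 1.40 to 2.29), whose interval overlaps that of the regions, and was 3.41% for peaks lost only with FSK. The 21 covered 22 windows, 18 of lncRNA genes and 4 of protein-coding genes: CDH18, LRRC3B, UGT3A1 and PPP2R2B. In those 4 genes the start of the listed transcript lies inside the gene, over 1000 bp from its outermost annotated ends. The median GC content was 54% in the 22 windows and 65% in the 3176 windows under distal peaks kept in all 3 lists, but 52% and 56.8% in those under peaks lost only with EZH2i and only with FSK.

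The windows of those 4 genes, and 2 lncRNA windows that hold an AP-1 word, are printed because they show the base sequence under and around the summits of 6 of the regions. The sequences are RefSeq's for GRCh38.p14 (hg38 coordinates), 5′ to 3′ on the gene's strand, and capitals mark the vehicle summit with up to 25 bases on each side. CDH18 (cadherin 18, a cell adhesion protein) is chr5:19886223-19886522, minus strand. LRRC3B (a leucine-rich repeat membrane protein) is chr3:26624396-26624695, plus strand. UGT3A1 (a glycosyltransferase) is chr5:35991341-35991640, minus strand. PPP2R2B (a regulatory subunit of protein phosphatase PP2A) is chr5:147055912-147056211, minus strand. LOC400940 is chr2:5981728-5982027, plus strand, and LINC01504 is chr9:72305186-72305485, plus strand. All 6 windows lay wholly under their vehicle peak. The LRRC3B region was a near miss of the overlap rule, with a CBPi peak 111 bp away. It was overlapped by EZH2i and FSK peaks far wider than its vehicle peak, each in the top 10% of area of its list. Their summits lay over 1000 bp from the vehicle summit, so this window does not stand for the regions as a whole.
CDH18: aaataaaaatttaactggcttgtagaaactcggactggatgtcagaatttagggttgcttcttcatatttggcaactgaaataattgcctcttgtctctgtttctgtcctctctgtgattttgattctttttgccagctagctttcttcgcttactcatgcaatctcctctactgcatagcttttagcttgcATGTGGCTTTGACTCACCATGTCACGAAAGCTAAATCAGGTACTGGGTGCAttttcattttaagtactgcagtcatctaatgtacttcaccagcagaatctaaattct
LRRC3B: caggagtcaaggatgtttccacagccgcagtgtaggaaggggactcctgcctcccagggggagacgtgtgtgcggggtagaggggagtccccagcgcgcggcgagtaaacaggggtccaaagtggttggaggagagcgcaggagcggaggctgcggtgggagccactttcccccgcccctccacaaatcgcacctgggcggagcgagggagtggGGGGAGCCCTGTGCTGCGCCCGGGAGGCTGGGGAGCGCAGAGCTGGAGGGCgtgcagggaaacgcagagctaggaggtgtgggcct
UGT3A1: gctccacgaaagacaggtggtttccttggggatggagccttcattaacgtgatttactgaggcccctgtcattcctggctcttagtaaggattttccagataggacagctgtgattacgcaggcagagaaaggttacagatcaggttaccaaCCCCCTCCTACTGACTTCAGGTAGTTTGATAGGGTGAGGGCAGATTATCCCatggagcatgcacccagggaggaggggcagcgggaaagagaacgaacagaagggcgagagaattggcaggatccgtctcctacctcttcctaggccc
PPP2R2B: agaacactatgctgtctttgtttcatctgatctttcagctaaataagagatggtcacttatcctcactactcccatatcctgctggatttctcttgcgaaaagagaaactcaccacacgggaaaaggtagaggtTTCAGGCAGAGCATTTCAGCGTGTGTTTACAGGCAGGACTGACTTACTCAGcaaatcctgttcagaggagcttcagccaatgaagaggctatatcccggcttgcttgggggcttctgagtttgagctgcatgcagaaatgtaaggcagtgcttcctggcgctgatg
LOC400940: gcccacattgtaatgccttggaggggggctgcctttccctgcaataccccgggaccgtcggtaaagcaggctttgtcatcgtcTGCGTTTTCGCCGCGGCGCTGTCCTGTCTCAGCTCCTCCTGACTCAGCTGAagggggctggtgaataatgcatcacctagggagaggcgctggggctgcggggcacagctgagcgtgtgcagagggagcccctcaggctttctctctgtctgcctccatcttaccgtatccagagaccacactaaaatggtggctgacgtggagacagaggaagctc
LINC01504: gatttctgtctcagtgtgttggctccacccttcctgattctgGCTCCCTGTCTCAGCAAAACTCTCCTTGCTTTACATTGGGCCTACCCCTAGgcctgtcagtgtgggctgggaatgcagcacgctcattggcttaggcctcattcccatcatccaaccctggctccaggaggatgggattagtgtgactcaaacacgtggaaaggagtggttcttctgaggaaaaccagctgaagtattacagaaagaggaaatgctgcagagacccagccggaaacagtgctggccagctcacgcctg

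A set of 5 motif words were searched on both strands of the 22 windows and of all 34961 promoter windows of that length. The AP-1 word TGANTCA stood in 3 of the 22, against 7.68% of all windows: 10 bases from the summit in CDH18, 14 bases in LOC400940 and 118 bases in LINC01504. The word AAGGTCA, read by the steroidogenic factor SF1, stood in 2 of the 22 (3.92% of all windows), at LOC105379082 and LINC02354, in both outside the bases covered by the vehicle peak. The GATA word AGATAA stood in 1 (10.3% of all), while the TCF/LEF word CTTTGAT (2.63% of all) and the cAMP response element TGACGTCA (1.85% of all) stood in 0. These are matches of letters in 22 windows and say nothing about the regions away from RefSeq starts or about binding.

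The vehicle peaks of the 1875 regions were small. Peak area, the authors' signal column, had a median of 437.6 (quartiles 332.5 and 585.2) against 484.0 over all distal peaks, with a lowest area of 200.008 in the list. The median region ranked at the 38.0th percentile of area among all vehicle peaks, 474 (25.3%) were in the larger-area 50% and 2 in the top 10%. Their median width was 391 bp against 468 bp over all distal peaks, while the median −log10 p at the summit was 4.35 in both. By decile of distal-peak area, the share that was lost only with CBPi was 2.41% in the smallest decile, 6.91% in the sixth and 0.165% in the largest. These values belong to the contrast that chose the regions and are given as a description. The peaks lost only with EZH2i or only with FSK were concentrated in the same middle deciles, as the plot by area shows.

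**Figure D1:**
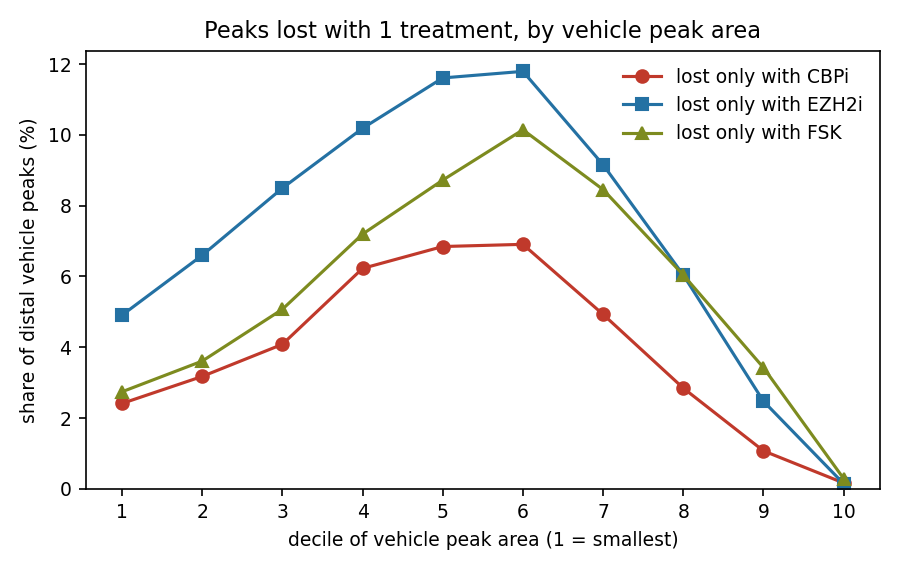
Share of distal vehicle peaks (vertical axis, %) lost only with CBPi, EZH2i or FSK in each decile of vehicle peak area (horizontal axis, decile 1 the smallest; about 4849 peaks per decile). The CBPi curve is highest in decile 6, at 6.91%, and falls to 0.165% in decile 10.

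In the lists that kept them, the regions stood at nearly the same base but low in rank. The EZH2i summit was a median of 21 bp from the vehicle summit and within 100 bp for 88.7% of regions, and the FSK list gave the same 2 values. At least 50% of the vehicle peak was covered in 90.2% of regions by the EZH2i list and in 92.9% by the FSK list. Within the EZH2i list the overlapping peaks had a median area percentile of 18.0 (quartiles 8.04 and 29.7), and 682 (36.4%) had an area under 250, against 12.3% of that whole list. Within the FSK list the median percentile was 31.6 (quartiles 17.3 and 45.5), and 317 (16.9%) were under 250, against 12.5% of the whole list. Distal peaks kept in all 3 lists had medians of 49.3 in the EZH2i list and 59.1 in the FSK list. The EZH2i list, the shortest of the 4, has a lowest area of 200.004.

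Under the 1 bp overlap rule, most regions had no CBPi peak close by. The gap to the nearest CBPi peak had a median of 35879 bp (quartiles 9927 and 96608.5), and 75 regions (4.00%, 3.20 to 4.99) had one within 1000 bp. Where at least 50% of the vehicle peak had to be covered to count as kept, 25.1% had one, since peaks covered over a smaller part by a CBPi peak then count as lost. The closest cases inside the overlap rule were gaps of 50 bp at chr7:50208015-50208406, 84 bp at chr7:52667200-52668317 and 93 bp at chr22:20567871-20568260. Just outside it, distal peaks kept in all 3 lists were covered by CBPi peaks over as little as 18 bp (chr7:45622987-45623378), 25 bp (chr21:41169016-41169361) and 57 bp (chr7:50653767-50654472), and 2 of 20978 were covered over less than 50 bp. At the gene-distance rule, the nearest region lay 1033 bp from a gene end, and 37 further vehicle peaks with the same overlap pattern lay 15 to 955 bp from one.

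Over all distal vehicle peaks, 37.4% were absent from the CBPi list, 45.3% from the EZH2i list and 36.0% from the FSK list. Absence from 1 list alone was 3.87% for CBPi, 7.14% (3463 peaks) for EZH2i and 5.57% (2701 peaks) for FSK. Loss with CBPi thus seldom came alone: 10573 distal peaks were lost with all 3 treatments, 4731 with both inhibitors only and 976 with CBPi and FSK only.

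The regions lost only with CBPi lay far from gene ends. Their median distance to the nearest end of a protein-coding gene was 118817 bp (quartiles 34951.5 and 331768), against 38895 bp over all distal peaks. It was 31182 bp for peaks lost only with EZH2i and 33926 bp for peaks lost only with FSK. More than 100 kb separated 1018 of the 1875 (54.3%, 52.0 to 56.5) from any gene end, against 29.0% of all distal peaks, 23.8% of those lost only with EZH2i and 22.7% of those lost only with FSK. For 278 (14.8%) the distance was over 500 kb, against 5.42% of all distal peaks. Among the 8 patterns of loss, the 4 that include loss with CBPi had median distances from 51621 to 118817 bp and the 4 that do not had medians from 24881.5 to 33926 bp.

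**Figure D2:**
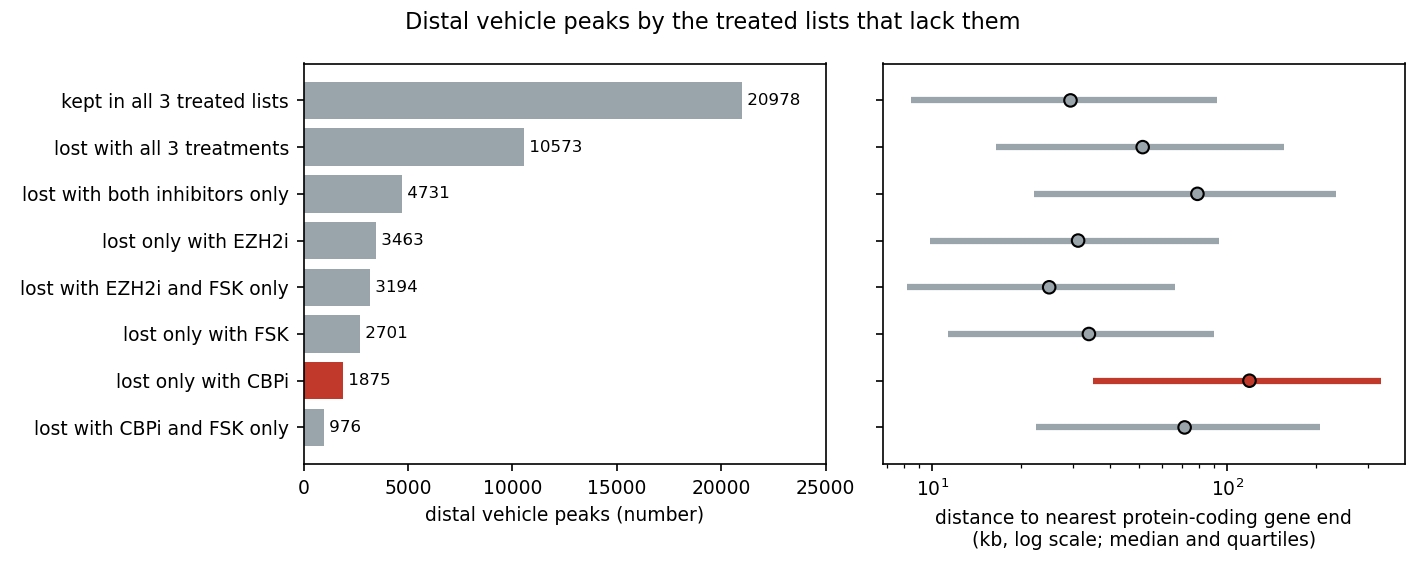
Left, number of distal vehicle peaks for each of the 8 patterns of presence in the 3 treated lists. Right, distance from the summit to the nearest protein-coding gene end in kb (log scale; dot, median; bar, quartiles); the peaks lost only with CBPi (red) have the largest median, 118817 bp.

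Fewer of the regions lay inside genes. The summit was inside a protein-coding gene in 653 of 1875 (34.8%, 32.7 to 37.0), against 48.8% of all distal peaks, 53.3% of peaks lost only with EZH2i and 52.3% of those lost only with FSK. Inside a lncRNA gene were 330 (17.6%), close to the 17.2% of all distal peaks. Neither kind of gene covered 944 (50.3%, 48.1 to 52.6), against 38.0% of all distal peaks. Exons, introns and UTRs were not used here.

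Gene-poor parts of the genome held more of the regions than of distal peaks as a whole. Windows of 5 Mb were ranked by their number of protein-coding genes and divided into quintiles. In the quintile with 0 to 13 genes per window, 625 of 7536 distal peaks were lost only with CBPi (8.29%, 7.69 to 8.94). The share fell through 5.49%, 3.22% and 2.34% to 1.27% (138 of 10871, 1.076 to 1.498) in the quintile with 47 to 201 genes. Loss with EZH2i alone ran the other way, from 5.79% to 7.93%, and so did loss with FSK alone, from 3.08% to 7.53%. A peak that was also lost with CBPi is not in these classes. Their shares therefore do not show whether loss with EZH2i or FSK in any pattern was rarer in gene-poor windows. Loss in any pattern was not counted by quintile. With every area decile weighted equally, the CBPi shares were 8.21% in the gene-poorest and 1.30% in the gene-richest quintile. In each of the 10 deciles the gene-poorest quintile had the higher share, though in the largest-area decile this rested on 2 and 1 peaks. The gene-poorest quintile held 33.3% of the regions and 15.5% of all distal peaks, and the gene-richest 7.36% and 22.4%.

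Distance to the nearest gene end gave the same order. Of distal peaks 1 to 10 kb from an end, 1.84% (1.60 to 2.11) were lost only with CBPi. The share was 3.29% at 30 to 100 kb, 5.75% at 100 to 300 kb, 9.64% (8.82 to 10.5) at 300 to 1000 kb and 10.3% (8.12 to 13.0, 61 of 591 peaks) beyond. At 300 to 1000 kb, loss with EZH2i alone was 5.29% and with FSK alone 3.47%, both lower than at 1 to 10 kb, where they were 7.95% and 5.58%. Here too peaks also lost with CBPi are left out of these classes, and loss in any pattern was not counted by distance.

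**Figure D3:**
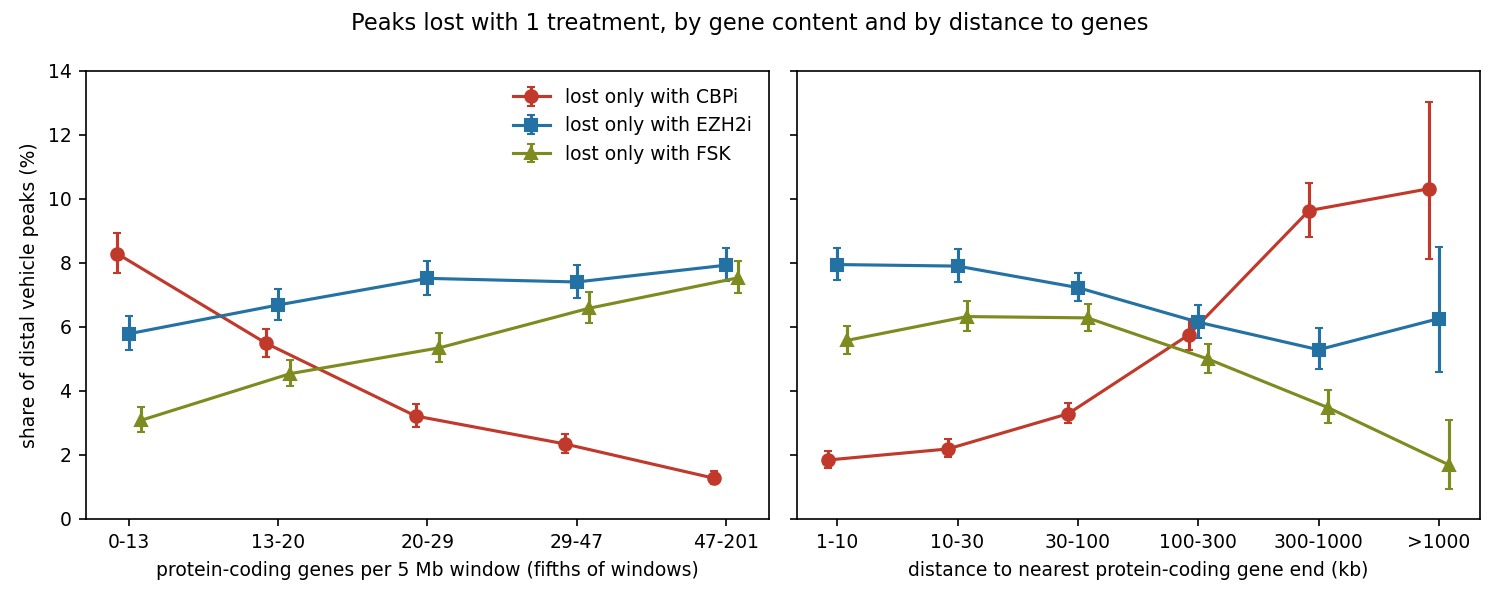
Share of distal vehicle peaks (vertical axis, %) lost only with CBPi, EZH2i or FSK, by number of protein-coding genes in the 5 Mb window (left, quintiles of windows) and by distance to the nearest gene end in kb (right); bars are 95% Wilson intervals. The CBPi share falls from 8.29% to 1.27% with gene content and rises from 1.84% to 10.3% with distance, while the other 2 shares do not rise with distance in that way.

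Chromosomes differed in this share. The share of distal peaks lost only with CBPi was highest on chromosome 7 (283 of 3933, 7.20%, 6.43 to 8.05), followed by 18 (6.72%, 5.36 to 8.40), 13 (5.96%, 4.89 to 7.24), 4 (4.96%) and 5 (4.86%). The first place of chromosome 7 rests on its stretch from 45 to 55 Mb, described below: without it the share was 125 of 3079 (4.06%, 3.42 to 4.82), under those of 18, 13, 4, 5 and 8. The intervals of chromosomes 7, 18 and 13 overlap, so their order is not resolved. Without the stretch, the interval of chromosome 7 overlaps those of 4, 5 and 8, so that order is not resolved either. The share was lowest on chromosome 19 (8 of 862, 0.928%, 0.471 to 1.82), then 22 and 21 (both 1.22%), 17 (1.63%) and 20 (2.07%). On chromosomes 18, 13 and 4 the median distal peak lay in a 5 Mb window of 20, 18 and 19 genes, and on chromosomes 19, 22 and 17 in one of 151, 77 and 67. Chromosomes 21 and 20, with low shares, had 28 and 32, near the 26 of all distal peaks, and chromosome 7 had 25. Chromosome 20 had the highest share lost only with EZH2i (10.1%).

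**Figure D4:**
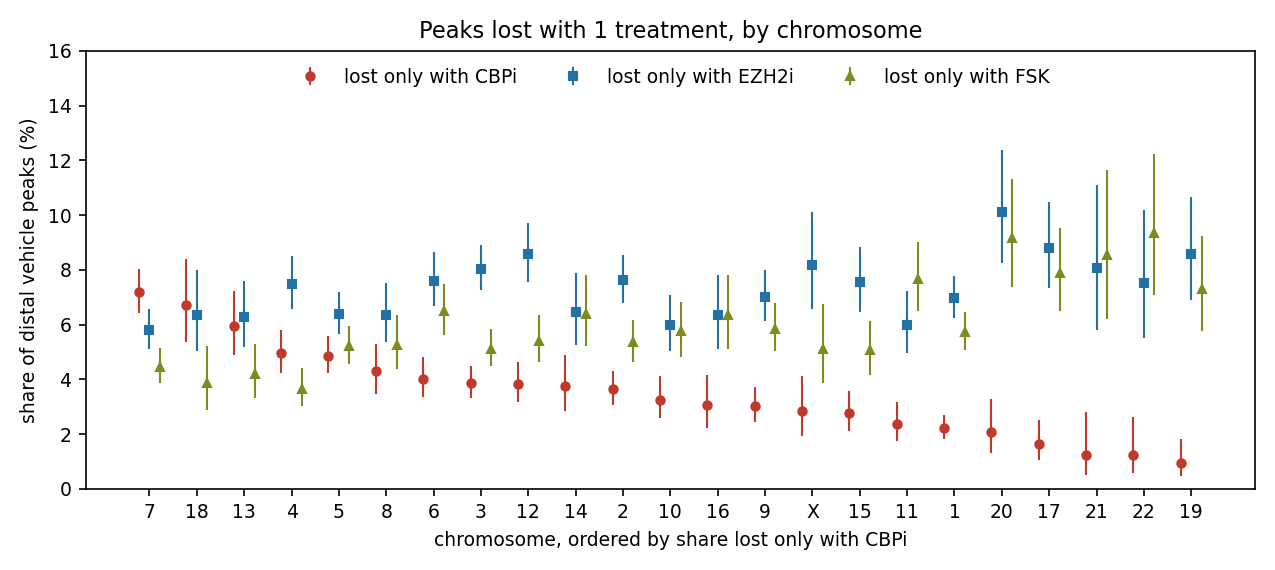
Share of the distal vehicle peaks of each chromosome (vertical axis, %) lost only with CBPi, EZH2i or FSK, with 95% Wilson intervals; chromosomes are ordered by the CBPi share. The CBPi share runs from 7.20% on chromosome 7, which is 4.06% without its stretch from 45 to 55 Mb, to 0.928% on chromosome 19.

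One stretch of chromosome 7, from 45 to 55 Mb, held 158 of the regions, 8.43% of all. Peaks were dense there: the vehicle list had 85.4 distal peaks per Mb, against a median of 15 per 1 Mb window over the genome. Of its 854 distal peaks, 158 (18.5%, 16.04 to 21.24) were lost only with CBPi, 20 (2.34%) only with EZH2i and 18 (2.11%) only with FSK. In all, 46.6% of its distal peaks were absent from the CBPi list, 24.0% from the EZH2i list and 20.6% from the FSK list. The treated lists counted 566 (CBPi), 963 (EZH2i) and 1019 (FSK) peaks there, against 882 in the vehicle list. The part of peak density in these results was not tested. This stretch was singled out after its values were seen, and without it 1717 regions remain, with a median distance to a gene end of 119378 bp and shares of 7.48% in the gene-poorest and 1.27% in the gene-richest quintile.

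All but 1 of the 8 windows of 1 Mb with the most regions were in that stretch. The window at 49 to 50 Mb, with VWC2 and ZPBP, held 29 regions among 90 distal peaks, 64 of which were lost with CBPi in any pattern, 21 with EZH2i and 25 with FSK. The window at 50 to 51 Mb, with IKZF1, DDC and GRB10, also held 29, among 153 distal peaks. The windows at 51 to 52 Mb (COBL), 52 to 53 Mb (no protein-coding gene) and 48 to 49 Mb (ABCA13 and others) held 24, 23 and 16. POM121L12 is the 1 gene of the window at 53 to 54 Mb, which held 13, and the window at 45 to 46 Mb, with ADCY1, IGFBP1 and IGFBP3, held 10. The remaining window, chromosome 7 at 142 to 143 Mb, has the trypsinogen genes PRSS1 and PRSS2 and held 9 of 52. By 5 Mb windows, the next most after the stretch was chromosome 12 at 20 to 25 Mb, with 26 of 155 (16.8%).

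Of the 1875 regions, 406 (21.7%, 19.8 to 23.6) had another region as the next distal vehicle peak on at least 1 side, against 16.8% (15.6 to 18.1) of peaks lost only with EZH2i and 17.4% (16.02 to 18.9) of those lost only with FSK. Without the stretch at 45 to 55 Mb the shares were 20.2% (18.3 to 22.1), 16.9% and 17.5%. The other 1469 regions stood alone, and 2 runs of 5 consecutive distal peaks were made up of regions alone. Those runs were chr7:48382692-48415478, inside ABCA13, and chr7:52426837-52483228, 552684 bp from POM121L12. Outside chromosome 7 the longest runs had 4 regions, among them chr4:116599781-116705985, 377892 bp from TRAM1L1, and chr13:81872620-82072882, 1531645 bp from SPRY2. Within 50 kb of another region were 359 (19.1%, 17.4 to 21.0), but 12.9% (11.4 to 14.6) when the stretch at 45 to 55 Mb was left out. The latter compares with 21.99% of the 3443 peaks lost only with EZH2i and 21.5% of the 2683 lost only with FSK outside that stretch. Those groups are larger, so a neighbour of their own kind is nearer to begin with.

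Other distal peaks within 1000 kb of a region were lost more often with CBPi than those farther away, over all windows together. The stretch at 45 to 55 Mb was left out of these counts, and the regions themselves are not counted. Each peak counted here as lost with CBPi was therefore also lost with EZH2i, FSK or both. Of other distal peaks within 10 kb of a region 42.0% (38.2 to 45.8) were absent from the CBPi list, 43.4% at 10 to 50 kb, 43.8% at 50 to 200 kb and 38.3% at 200 to 1000 kb. Beyond 1000 kb it was 28.3% (27.7 to 29.0). For EZH2i the values were 45.7% within 10 kb, 50.8% at 50 to 200 kb and 45% beyond 1000 kb. For FSK they were 36.0%, 35.6% and 39.0%. Within the gene-poorest quintile of windows alone, with that stretch included, the CBPi value was 44.9% (39.1 to 50.8) within 10 kb. It was 50.1% (46.1 to 54.0) at 10 to 50 kb, 51.6% (49.0 to 54.2) at 50 to 200 kb and 49.6% (47.8 to 51.3) at 200 to 1000 kb. Beyond 1000 kb it was 41.0% (38.6 to 43.5). The intervals within 10 kb and beyond 1000 kb overlap, so a higher share within 10 kb is not resolved in that quintile. The intervals between 10 and 1000 kb all lie above the interval beyond 1000 kb.

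**Figure D5:**
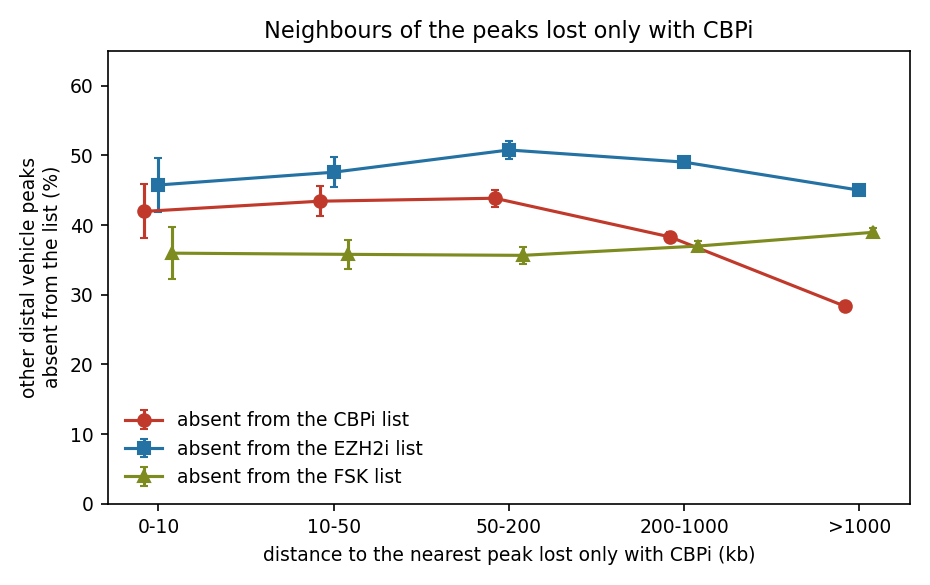
Share of other distal vehicle peaks absent from the CBPi, EZH2i or FSK list (vertical axis, %), by distance in kb to the nearest peak lost only with CBPi (horizontal axis), with 95% Wilson intervals and without chromosome 7 at 45 to 55 Mb. The CBPi share is 42.0% within 10 kb and 28.3% beyond 1000 kb.

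Peaks at gene ends near the regions mostly stayed in the CBPi list. Of 1240 gene-end vehicle peaks within 200 kb of a region, 77 (6.21%, 5.00 to 7.69) were absent from it, against 4.14% (3.801 to 4.499) of all 12525 gene-end peaks. The same peaks were absent from the EZH2i list in 6.94% and from the FSK list in 7.10%, against 8.22% and 8.07% of all gene-end peaks. Within 50 kb the CBPi count was 22 of 336 (6.55%, 4.36 to 9.71).

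New peaks, those of a treated list with no vehicle peak under them, were also counted around the regions. Leaving out the peaks that overlap the regions themselves and the stretch at 45 to 55 Mb, 245 of 1662 distal EZH2i peaks within 50 kb of a region had no vehicle peak under them (14.7%, 13.1 to 16.5), against 8.28% of all distal EZH2i peaks outside the stretch. For FSK the values were 612 of 2329 (26.3%, 24.5 to 28.1) against 19.6%. For CBPi they were 155 of 1672 (9.27%, 7.97 to 10.8) against 13.3%. With the stretch included the EZH2i share near regions was 22.4%. The regions were chosen for having EZH2i and FSK peaks and no CBPi peak, and these shares point the same way as that choice. They are given as a description, and the compared peaks were not matched for gene content.

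The region of largest area, 9041.8 in the vehicle list, was chr12:29790303-29794632, 7782 bp from TMTC1, which encodes a mannosyltransferase of the endoplasmic reticulum. Its peak was 2883 bp wide in the EZH2i list, at the 87.1st percentile of that list, and 4019 bp wide in the FSK list, at the 99.7th percentile, with the nearest CBPi peak 2273 bp away. At chr18:39800816-39803354, 2027065 bp from the nearest protein-coding gene end, the vehicle area was 4370.0 and the percentiles were 44.9 in the EZH2i list and 96.1 in the FSK list. A CBPi peak lay 380 bp from it. These 2 were the only regions in the top 10% of vehicle area. The other 10 of the 12 largest had vehicle areas between 1467.6 and 2021.6.

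A region inside ZNF385D, a zinc finger gene (chr3:21617023-21618027, vehicle area 2021.6), ranked at the 24.0th percentile in the EZH2i list and the 60.9th in the FSK list, and its nearest CBPi peak was 132380 bp away. At chr8:116628532-116629828, 13249 bp from EIF3H, a translation initiation factor gene, the EZH2i percentile was the higher, at 36.0, with 2.06 in the FSK list. The region at chr5:25758915-25760435, 1114779 bp from the cadherin gene CDH10, stood at 12.3 and 80.8, and 1 inside AGBL4, 6448 bp from BEND5 (chr1:48720711-48721883), at 2.82 and 86.1. Inside TNS3, which encodes the focal adhesion protein tensin 3 (chr7:47292571-47293448), the values were 51.0 and 57.2, with a CBPi peak 570 bp away. The region at chr3:168671089-168671863, 412082 bp from the transcription factor gene MECOM, had 17.7 and 73.2.

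Others of the 12 were inside GABRB2, a GABA-A receptor subunit gene (chr5:161446427-161447517, percentiles 23.4 and 59.2), and inside PHF2, a histone demethylase gene (chr9:93644435-93645238, 22.8 and 60.8). Another lay 149461 bp from VWC2, a secreted BMP antagonist gene (chr7:49623865-49624613, 34.2 and 65.7). The twelfth, chr18:71212205-71213162, 882484 bp from SOCS6, had 68.2 and 80.3. In all of these 12 but the region near EIF3H the FSK percentile was above the EZH2i percentile. Ranks in lists of different length do not show a change between treatments. The 5 regions of smallest area, 200.2 to 201.4, lay near GRXCR2, TLE4, COBL, FSTL5 and CCDC167. The 1 near COBL (chr7:50953880-50954261) overlapped a much wider FSK peak of 1760 bp, against 382 bp in the vehicle list.

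A gene was given to each summit by its closest protein-coding gene end, up to 100 kb away, and 857 of the regions (45.7%) had one, against 71.0% of all distal peaks. They were spread over 708 genes, 617 of which had 1 region each. Of assigned distal peaks 2.49% were lost only with CBPi, and of unassigned ones 7.24%. Genes of the stretch on chromosome 7 led the count. COBL, an actin nucleator gene, had 21 of its 67 distal peaks lost only with CBPi and 0 lost only with EZH2i or only with FSK. GRB10, an adaptor of insulin and growth factor receptors, had 10 of 57. Next came VWC2 (6 of 25), IKZF1, the gene of the lymphoid factor Ikaros (6 of 35), ZPBP, a sperm protein gene (5 of 18), ADCY1, the calmodulin-stimulated adenylyl cyclase (5 of 36), SPMIP7 (4 of 24) and TNS3 (3 of 44).

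Elsewhere, PCDH17, a protocadherin gene on chromosome 13, had 4 of 8 distal peaks lost only with CBPi. In any pattern 6 of the 8 were lost with CBPi, against 31.8% of all assigned distal peaks. THRB, the thyroid hormone receptor β gene on chromosome 3, had 3 of 15. CDH8, a cadherin gene on chromosome 16, had 3 of 6, and TRHDE, encoding the thyrotropin-releasing hormone degrading enzyme on chromosome 12, had 3 of 5. HNMT, the histamine methyltransferase gene, had 3 of 6, all outside the gene body. ADGRG6, an adhesion G protein-coupled receptor gene, and RNF152, a ubiquitin ligase gene, had 2 of 5 each. Counted by gene body instead, ABCA13 held 15 regions among 51 distal peaks and COBL 12 of 56, followed by ZPBP (8 of 28), ZNF385D (7 of 18), the glypican gene GPC5 (7 of 30) and CNTNAP2 (7 of 41). The netrin receptor gene DCC held 6 of 11, VWC2 6 of 25, ROBO1 6 of 30 and GRB10 6 of 41. MECOM held 5 of 10 and SEMA5A 5 of 13. Over all protein-coding gene bodies, 653 of 23674 distal peaks were regions.

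Of the gene lists, chosen with earlier results of these data known, that of neuronal adhesion and synapses had the highest share. Of the 281 distal peaks assigned to the 55 listed genes, 26 were lost only with CBPi (9.25%, 6.39 to 13.2), in 16 genes. The share of all assigned distal peaks was 2.49%. Lost only with EZH2i were 15 and only with FSK 9, against 7.66% and 6.07% of all assigned distal peaks. In any pattern 140 of the 281 (49.8%) were lost with CBPi, against 31.8% of all assigned distal peaks. The list's genes lie in gene-poor places: 48.0% of these 281 peaks were in the gene-poorest quintile of windows, where 6.24% of all assigned distal peaks were lost only with CBPi. Cadherin genes had 8 of the 26 regions, 3 at CDH8, 2 each at CDH7 and CDH9 and 1 at CDH10. PCDH17 had 4. CTNND2 (δ-catenin 2), NLGN1 (neuroligin 1) and CSMD3 had 2 each. CNTN4, CNTN5, CNTN6, CNTNAP2, CSMD2, DCC, PCDH7 and SLITRK6 had 1 each. At CDH9 7 of 8 distal peaks, and at CDH8 4 of 6, were lost with CBPi in any pattern.

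Of 112 distal peaks assigned to 24 Wnt/β-catenin target genes, 0 were lost only with CBPi, an upper interval bound of 3.32%, which is above the 2.49% of all assigned distal peaks, so a lower share was not detectable. In any pattern 27 of the 112 (24.1%) were lost with CBPi, against 31.8% of all assigned distal peaks. Of the 112, 5 were lost only with EZH2i and 19 only with FSK, against 7.66% and 6.07% of all assigned distal peaks. The 67 distal peaks of Polycomb and coactivator genes likewise had 0, with 20 lost in any pattern, and so had the 63 of cholesterol supply genes and the 39 of housekeeping genes. The upper bounds for these 3 lists, 5.42%, 5.75% and 8.97%, are likewise above 2.49%.

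Adrenocortical steroidogenic genes had 1 region among 80 distal peaks (1.25%, 0.221 to 6.75, against 2.49% of all assigned distal peaks), at chr12:124767047-124767295, 9685 bp from SCARB1, the HDL receptor gene. SCARB1 had 22 distal peaks, 8 of them lost with CBPi in any pattern, against 31.8% of all assigned distal peaks. The aldosterone channel list had 1 of 46, a region of vehicle area 1062.8 at chr2:26740845-26741652, 7621 bp from the potassium channel gene KCNK3. The cell cycle list had 1 of 31, 33810 bp from the cyclin E1 gene CCNE1. The intervals of these 3 lists all hold 2.49%, so none differs detectably from it. Genes of cAMP signalling had 10 of 178 (5.62%, 3.08 to 10.0): 5 at ADCY1, 3 inside the phosphodiesterase gene PDE3A, 1 at ADCY2 and 1 at the nuclear receptor gene NR4A2. Without the stretch on chromosome 7, which holds ADCY1, it was 5 of 142 (3.52%). With genes assigned only up to 50 kb away and the stretch included, it was 5 of 125 (4%). No interval was computed for these counts, and whether the list differs from 2.49% without that stretch was not tested. At PDE3A 12 of 17 distal peaks were lost with CBPi in any pattern, against 31.8% of all assigned distal peaks. PDE3A lies on chromosome 12 at 20 to 25 Mb, where 101 of all 155 distal peaks (65.2%) were lost with CBPi in any pattern. The marker lists of immune, endothelial, fibroblast and chromaffin cells had 0 regions among 7, 16, 13 and 7 distal peaks, and the adrenocortical markers had 1 of 43, the same region near SCARB1. The upper bounds of the 4 lists without a region run from 19.4% to 35.4%, so these counts show no difference from 2.49%.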

How the data were processed

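The authors deposited 1 ATAC-seq peak list per group, which the submitters' processing notes tie to build hg38, Bowtie2, Genrich and deepTools 2.0 without saying what each did. The way 2 libraries became 1 list, and whether reads were shifted for Tn5, is not given in the sources used here. The lists hold the authors' peak area (the signal column), a deposited score capped at 1000 that was not used, and the deposited −log10 of the summit p-value. Area was used only within a list.

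Peaks were annotated with Python 3.11.15 (numpy, pandas, scipy) from a RefSeq table of GRCh38.p14 with 19974 protein-coding genes. Distances run from the summit, column 2 plus column 10. Overlap functions were checked on simulated intervals. All 237 listed genes matched. Members and lists were chosen with earlier results of these data known. Named were the 12 regions of largest and 5 of smallest area, 8 windows of 1 Mb, 12 genes by count, 6 by share among those with at least 5 distal peaks, and every list gene with a region; gene bodies, runs and 5 Mb windows were named after seeing their values. The planned motif and GC counts of the peaks need a genome and were not run. Alternatives were the overlap rule, list length, area, gene distance, gap, window size and assignment distance.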

Additional observations from a re-analysis of the deposited data

How the results depend on the processing

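Each group is 1 peak list, so leaving out a library was not possible. No paired analysis was possible because the 2 libraries of a group share 1 list. Depth is unknown, and absence from a list can be a peak just under its threshold. The number of regions lost only with CBPi was 474 when vehicle peaks were limited to the larger-area 50%, and their median area percentile then 57.9. The share inside protein-coding genes was 32.4% with summits over 5000 bp from gene ends. The difference in share between the gene-poorest and gene-richest windows, 7.02 percentage points, was 9.53 with 4 lists of equal length, 4.72 in the larger-area 50%, 8.20 with 1 Mb windows and 6.21 without chromosome 7 at 45 to 55 Mb, an alternative chosen after seeing the data. The share with another region within 50 kb, 19.1%, was 21.6% with at least 50% of the vehicle peak covered, 15.8% with equal lists, 6.12% in the larger-area 50%, 12.9% without that stretch and 10.8% at 20 kb. The share with a CBPi peak within 1000 bp, 4.00%, was 25.1% with at least 50% covered, 5.37% with the vehicle summit inside a treated peak, 2.64% with equal lists, 2.74% in the larger-area 50%, 3.07% at 5000 bp from gene ends, 1.91% with no CBPi peak within 500 bp and 2.97% without that stretch. By construction, fewer peaks enter the larger-area setting, the 500 bp rule removes regions with a near CBPi peak, 20 kb counts fewer neighbours than 50 kb, and the coverage and summit rules count partly covered peaks as lost. For the others the cause was not tested. The difference between gene-poorest and gene-richest windows stayed positive under all alternatives. The other results are a count, shares and a median, which have no direction that could reverse.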
